A study of Homo sapiens with 20 samples.

Results

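Collagens, laminins and integrins were taken as the protein-coding genes of GENCODE release 44 whose symbol is COL, LAM or ITG followed by a chain name. The rule gave 83 genes of the 19563 protein-coding genes with a transcript in the files, namely 44 collagen, 12 laminin and 27 integrin genes. The rule used symbols and no measured value, although earlier results of these data were known when it was set. ITGBL1 is among the 27 by its symbol, but encodes an integrin-like protein and not an integrin subunit. The samples were cultures of NGP, a human neuroblastoma cell line, grown in 6-well flasks. There were 10 vehicle samples, which received ethanol, and 10 nutlin samples, which received nutlin-3 as a racemic mixture at 8 µM. Nutlin-3 blocks the binding of MDM2 to the tumour suppressor p53, which is then no longer degraded. How long the cells were treated is not given in the sources used here. Poly(A) RNA was sequenced from stranded libraries, and all samples came from this 1 line, so the values say nothing of other neuroblastoma cells.

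Collagens are secreted triple helices of alpha chains that build fibrils, the sheet-like basement membrane, or microfibrils on cells. Laminins are cross-shaped trimers of an alpha, a beta and a gamma chain, and lay down the basement membrane together with collagen IV. Integrins are the membrane receptors that hold cells to these proteins, each a dimer of an alpha and a beta subunit, where the alpha subunit largely sets which matrix protein is bound. Neuroblastoma arises from the sympathoadrenal lineage of the neural crest, and its cells can make matrix proteins themselves.

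Libraries held 14455477 to 19532971 estimated counts, the median being 16456371.5. Counts were scaled to CPM, a gene's share of its library, with edgeR's TMM factors, and genes were called significantly differentially expressed (SDE) at 5% FDR by edgeR's quasi-likelihood (QL) test with Benjamini-Hochberg adjustment over 27697 genes. The log2 fold change (LFC) is nutlin against vehicle, given ± its standard error. The labels were checked on p53 targets: CDKN1A lay between 18.8 and 54.9 CPM in vehicle and between 1318 and 1833 CPM in nutlin, and MDM2 between 199 and 290 CPM and between 4797 and 6005 CPM. All 8 adrenergic neuroblastoma markers examined were expressed in both conditions, among them HAND2 with 940 to 1131 CPM in vehicle and 818 to 961 CPM in nutlin. They were not unchanged, as 3 rose, 4 fell and 1 was not called. HAND2 was among the falls, with an LFC of -0.24. The list of a mesenchymal neuroblastoma state summed to 597 to 680 TPM in vehicle and 376 to 518 TPM in nutlin. Most of that sum was VIM alone, with 589 to 671 TPM in vehicle and 357 to 493 TPM in nutlin. Of the 7 genes in the list 4 rose and 2 fell, so the sum does not describe the list. The fibroblast list summed to 204 to 242 TPM in vehicle and 113 to 141 TPM in nutlin, with 5 of 6 fibroblast markers (83.3%) falling. Here most of the sum was TWIST1 alone, with 154 to 186 TPM in vehicle and 87.0 to 111 TPM in nutlin. The endothelial, leukocyte, Schwann and glial, and epithelial lists stayed at or below 10.8 TPM. TPM is a level per transcript length.

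Nutlin treatment raised most collagen genes that changed, lowered the most abundant collagen IV gene and its partner, and split the laminins and integrins. Of the 80 members with at least 1 count in each condition, 45 rose, 15 fell and 20 were not called. Over all tested genes 58.8% were SDE. Among the 17351 tested protein-coding genes 32.4% rose and 38.5% fell, beside 56.2% and 18.8% of the tested members. The median LFC of the tested members was 0.77 and that of the tested protein-coding genes -0.0056. By family, 29 collagens rose and 3 fell of 43, 6 laminins rose and 2 fell of 12, and 10 integrins rose and 10 fell of 25. The share of integrins that rose, 40.0%, and the equal share that fell were therefore near the shares of all protein-coding genes, whereas 67.4% of the collagens rose and 6.98% fell. The median LFC was 0.96 for collagens, 0.40 for laminins and 0.39 for integrins. Among members with a mean of at least 1 CPM these medians were 0.93, 0.24 and -0.36, beside -0.15 for such protein-coding genes. The sign for integrins thus depended on the scarce genes, and of the 18 at that level 7 rose and 10 fell. In bulk RNA, fewer cells that express a gene and less RNA per cell cannot be told apart.

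Many members were scarce. A mean of at least 1 CPM over the 20 samples was reached by 50 members, 23 of them collagens, 9 laminins and 18 integrins. Among all 80 tested members, every nutlin sample lay above every vehicle sample for 27, or 33.8%, and below for 9, or 11.2%. Of the tested protein-coding genes 14.5% lay entirely above and 25.6% entirely below. Samples of a condition were less alike in the 50 members than in the 12797 protein-coding genes that reached 1 CPM, with a median coefficient of variation of 15.5% in vehicle and 13% in nutlin against 9.28% and 8.11%. These sets were not matched for level, and the part of level in this difference was not tested.

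**Figure D1:**
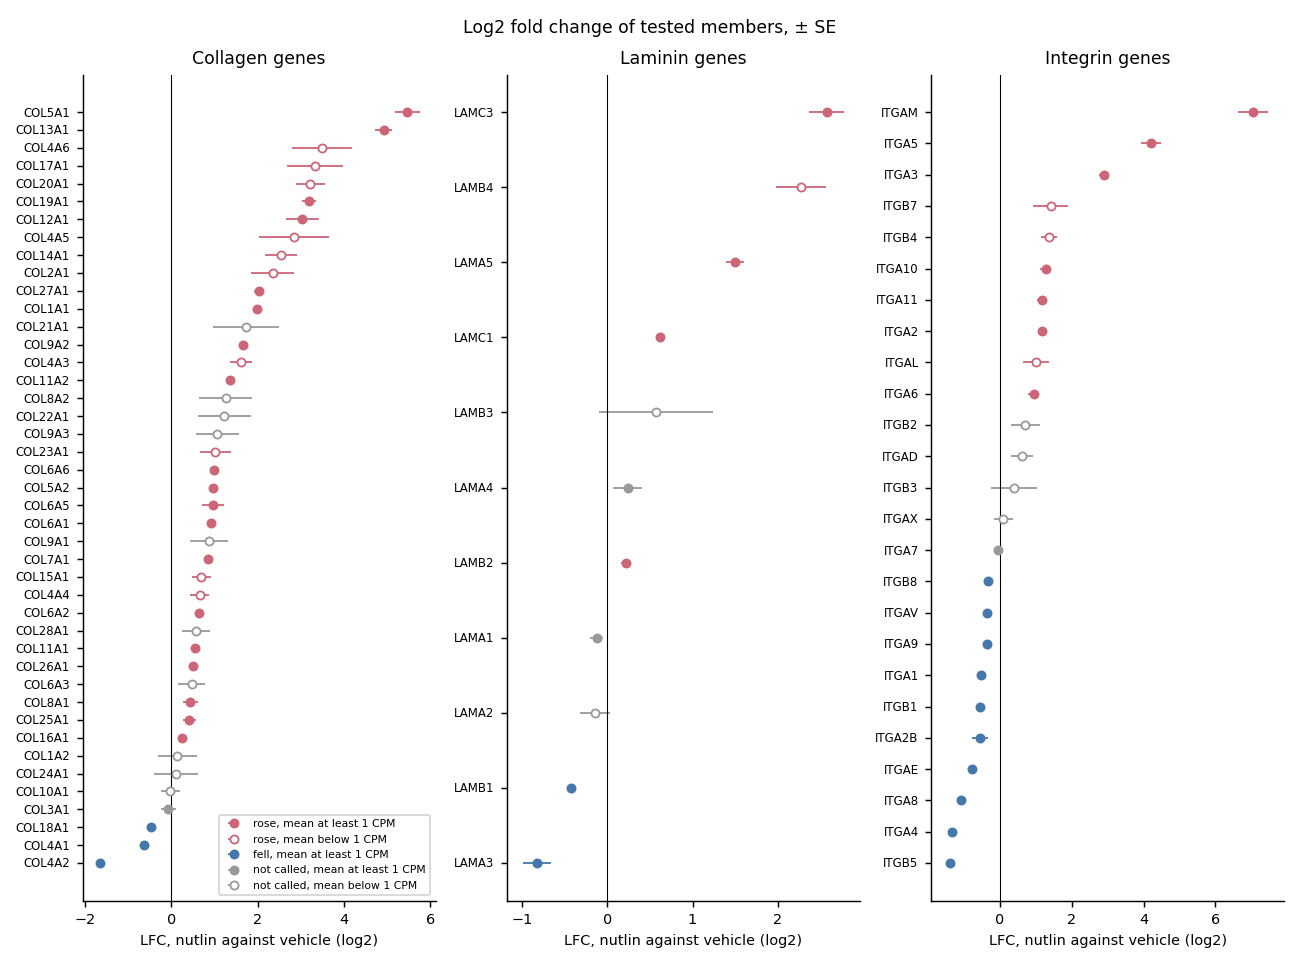
LFC of nutlin against vehicle (log2) on the x axis for tested members, with bars of ± 1 SE, in separate panels for collagens, laminins and integrins with different x ranges. Filled points have a mean of at least 1 CPM, open points a lower mean. Most collagen points lie right of 0 with COL4A2, COL4A1 and COL18A1 as the called falls, whereas 10 integrins lie on each side as called.

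Collagen IV, the network collagen of basement membranes, held the largest fall. Its genes lie in head-to-head pairs, COL4A1 with COL4A2 on chromosome 13, COL4A3 with COL4A4 on chromosome 2 and COL4A5 with COL4A6 on chromosome X. In the annotation COL4A1 spans chr13:110148963-110307157 on the minus strand and COL4A2 spans chr13:110305812-110513209 on the plus strand (GRCh38). Their promoter windows in RefSeq (GRCh38.p14), which run from 250 bases before to 50 bases after the start site, are printed because both genes fell and the windows share 226 bases. The window of COL4A1 is chr13:110307108-110307407, minus strand, and that of COL4A2 is chr13:110307034-110307333, plus strand, with start sites 127 bases apart. Each is written 5′ to 3′ on its gene's strand, with CCAAT or ATTGG and GGGCGG or CCGCCC in capitals.
COL4A1: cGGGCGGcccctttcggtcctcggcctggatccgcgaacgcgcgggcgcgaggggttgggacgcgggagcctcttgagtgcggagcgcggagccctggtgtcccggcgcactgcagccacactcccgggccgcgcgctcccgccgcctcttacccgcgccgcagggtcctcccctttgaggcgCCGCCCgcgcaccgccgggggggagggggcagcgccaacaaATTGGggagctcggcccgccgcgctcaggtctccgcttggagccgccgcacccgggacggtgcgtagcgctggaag
COL4A2: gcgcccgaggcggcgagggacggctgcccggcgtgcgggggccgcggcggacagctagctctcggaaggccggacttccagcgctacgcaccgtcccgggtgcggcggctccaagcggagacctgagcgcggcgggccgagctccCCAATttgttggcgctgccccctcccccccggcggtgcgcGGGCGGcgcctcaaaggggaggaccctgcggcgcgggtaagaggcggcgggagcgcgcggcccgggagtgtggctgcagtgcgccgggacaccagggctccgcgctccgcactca
The ATTGG of the COL4A1 window and the CCAAT of the COL4A2 window are the same 5 bases, chr13:110307179-110307183. The GC box letters at chr13:110307219-110307224 are likewise in both windows, and COL4A1 has a further match at chr13:110307401-110307406. CCAAT or ATTGG was found in 34.6% and GGGCGG or CCGCCC in 45% of all 35116 windows of this length, so these letters are common. A match is a description of the sequence and was not tested as a binding site.

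COL4A2, which encodes the alpha-2 chain, had the highest level per length of all collagens in vehicle. It lay between 114 and 136 CPM in vehicle, with a median of 128 CPM, and between 34 and 44.6 CPM in nutlin, with a median of 40.6 CPM. No nutlin sample came near a vehicle sample, and the LFC was -1.64 ± 0.04 (edgeR QL, adjusted p = 7.38e-24), a 3.12-fold lower mean. COL4A1, whose alpha-1 chain joins the alpha-2 chain in the common collagen IV trimer, lay between 19.4 and 26.2 CPM in vehicle (median 23.9 CPM) and between 9.58 and 18.6 CPM in nutlin (median 15.7 CPM). Its groups did not overlap either, but the fall was smaller, with an LFC of -0.64 ± 0.08 (adjusted p = 3.84e-08). In TPM the ratio of COL4A2 to COL4A1 lay between 3.89 and 6.47 in vehicle, with a median of 5.70, and between 2.50 and 3.82 in nutlin, with a median of 2.86.

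No correlation of the COL4A1 and COL4A2 levels among samples of a condition passed the test. On log2(CPM + 1), Pearson's r was -0.22 over the 10 vehicle samples (permutation p = 0.523) and Spearman's rho -0.22 (permutation p = 0.537). In the 10 nutlin samples r was 0.47 (permutation p = 0.169) and rho 0.53 (permutation p = 0.123). Only these 2 groups were examined, with two-sided tests, and the adjusted p of r was 0.523 in vehicle and 0.337 in nutlin (permutation). Without the 2 samples farthest from the COL4A1 median, r was -0.57 in vehicle and 0.13 in nutlin, over 8 samples each.

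**Figure D2:**
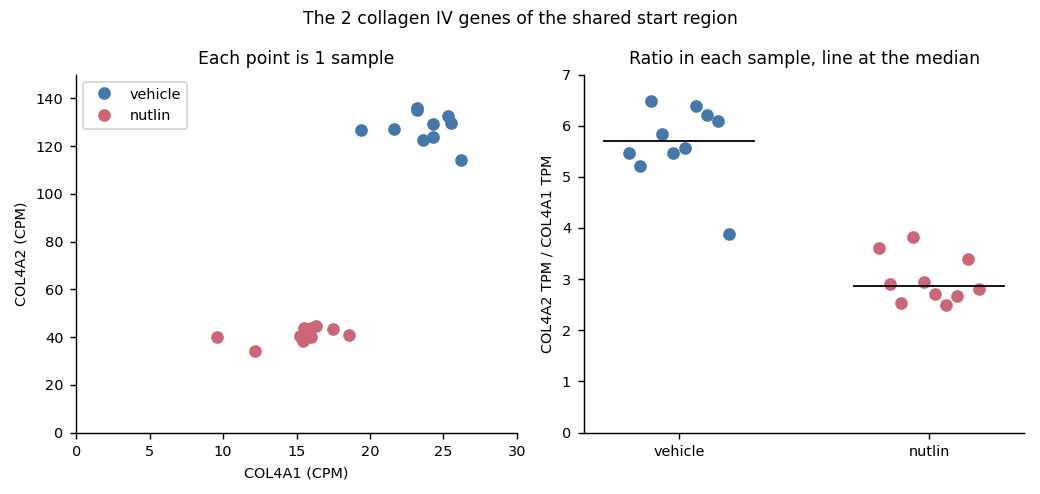
Left, COL4A1 (x axis) against COL4A2 (y axis) in CPM, 1 point per sample. Right, the ratio of COL4A2 TPM to COL4A1 TPM in each sample, with a line at the group median, 5.70 in vehicle and 2.86 in nutlin. The conditions form separate clouds, and 1 vehicle sample, at a ratio of 3.89, lies just above the highest nutlin sample.

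The other collagen IV genes were scarce and went the other way. COL4A3, whose chain forms trimers with those of COL4A4 and COL4A5 in kidney and lung basement membranes, lay between 0.0664 and 0.350 CPM in vehicle and between 0.394 and 0.841 CPM in nutlin (LFC 1.61 ± 0.26, adjusted p = 3.65e-06). COL4A4 lay between 0.325 and 0.782 CPM and between 0.525 and 1.45 CPM, with overlapping groups (LFC 0.66 ± 0.22, adjusted p = 0.0106). COL4A5 had 1 count over all vehicle samples and 15 over all nutlin samples. That is a ratio of 14.6 with a 95% counting interval of 2.25 to 616. COL4A6 had 2 counts and 36, a ratio of 17.6 with an interval of 4.52 to 150. Both were called SDE (adjusted p = 0.0036 for COL4A5 and 7.08e-05 for COL4A6), although 4 nutlin samples had 0 counts of COL4A5 and 1 had 0 counts of COL4A6. Such intervals cover counting error only. Summed over the 6 genes, collagen IV fell from 24.4 to 29.8 TPM in the vehicle samples to 7.72 to 13.8 TPM in the nutlin samples.

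Collagen VI, which forms beaded microfibrils on cell surfaces, was the most abundant collagen type per length in both conditions. Its 5 genes summed to between 30.9 and 43.2 TPM in vehicle and between 52.2 and 75.7 TPM in nutlin, so the groups did not overlap. COL6A1 rose from 44.1 to 51.4 CPM in vehicle (median 48.3 CPM) to 78.4 to 110 CPM in nutlin (median 89.8 CPM), with an LFC of 0.93 ± 0.05 (adjusted p = 2.53e-16). COL6A2, its neighbour on chromosome 21 at chr21:46098112-46132848, rose from a median of 25.7 CPM (22.1 to 30.9) to 41.3 CPM (35.5 to 46.9), with an LFC of 0.65 ± 0.06 (adjusted p = 4.33e-11). The classical trimer also needs the alpha-3 chain. COL6A3 stayed between 0.245 and 2.06 CPM in vehicle and between 0.463 and 2.34 CPM in nutlin and was not called (LFC 0.47 ± 0.31, adjusted p = 0.206), although with an offset for effective length, the length of a transcript that reads can start from, it was (LFC 0.91, adjusted p = 0.0415).

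The chains COL6A5 and COL6A6 resemble the alpha-3 chain and lie next to each other on chromosome 3. COL6A6 lay between 55.6 and 91.2 CPM in vehicle (median 81.5 CPM) and between 125 and 169 CPM in nutlin (median 149 CPM), with an LFC of 0.98 ± 0.08 (adjusted p = 4.55e-12). Its level per length, with a median of 10.4 TPM in vehicle, was close to that of COL6A2, with 10.5 TPM, and far above the 0.145 TPM of COL6A3. COL6A5 was far less regular, with 0.284 to 6.32 CPM in vehicle and 6.28 to 8.56 CPM in nutlin (LFC 0.96 ± 0.26, adjusted p = 0.0019). Vehicle samples 4, 5 and 7 had 0.284, 0.864 and 0.782 CPM of COL6A5, the other vehicle samples 3.73 CPM or more, and vehicle samples 4 to 7 also had the lowest COL6A6 values. In a fit without those 4 samples, chosen after the values were seen, the LFC was 0.49 ± 0.10 for COL6A5 (adjusted p = 0.000153) and 0.81 ± 0.05 for COL6A6 (adjusted p = 9.65e-13).

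Fibril-forming collagens rose where they changed. Of the 10 tested, 7 (70.0%) rose and none fell, with 3 not called, beside 32.4% rises and 38.5% falls of the tested protein-coding genes. The summed level of the fibrillar collagens went from between 5.88 and 9.61 TPM to between 16.7 and 23.6 TPM. The largest fitted LFC among the fibrillar collagens was that of COL5A1, the chain that starts collagen fibrils, at chr9:134641803-134844843. It lay between 0 and 1.27 CPM in vehicle, with a median of 0.0928 CPM, and between 11.2 and 15.5 CPM in nutlin, with a median of 14.02 CPM. The LFC was 5.47 ± 0.28 (adjusted p = 1.17e-16), a 48.0-fold higher mean. Most of its vehicle level came from samples 3 and 8, with 1.01 and 1.27 CPM, while the other vehicle samples had at most 0.241 CPM. COL5A2, the usual partner of COL5A1 in collagen V, rose less, from a median of 3.96 CPM (3.06 to 5.04) to 7.50 CPM (6.71 to 10.7), with an LFC of 0.96 ± 0.09 (adjusted p = 9.59e-11). COL5A3 had 0 counts in vehicle and 15 in nutlin, at least 4.87-fold higher when 3 counts over the vehicle group are taken as the floor.

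The collagen I genes parted. COL1A1, which encodes the alpha-1 chain, rose from 6.97 to 10.9 CPM in vehicle (median 9.16 CPM) to 29.5 to 40.8 CPM in nutlin (median 35.5 CPM), with an LFC of 1.98 ± 0.07 (adjusted p = 4.36e-20). COL1A2, which encodes the alpha-2 chain of the usual collagen I trimer, had at most 0.465 CPM in any sample and was not called (LFC 0.14 ± 0.45, adjusted p = 0.811). With 32 counts over all vehicle samples and 36 over all nutlin samples, the depth gives little power for COL1A2. COL3A1, found with collagen I in soft tissue, was also not called, with 1.30 to 4.06 CPM in vehicle and 1.64 to 3.81 CPM in nutlin (adjusted p = 0.76). COL27A1, a fibrillar collagen of cartilage, rose from a median of 1.90 CPM (1.42 to 2.62) to 8.37 CPM (6.02 to 9.31), with an LFC of 2.03 ± 0.11 (adjusted p = 3.3e-16). COL11A1 and COL11A2, which nucleate cartilage fibrils, rose with LFCs of 0.56 and 1.37. COL2A1, the main cartilage collagen, also rose (LFC 2.35 ± 0.50, adjusted p = 0.000179), but at a trace level, with at most 0.163 CPM in vehicle and 0.411 CPM in nutlin.

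Among the fibril-associated collagens, which bind to the surface of fibrils, 6 of 10 rose and none fell. COL19A1 lay between 0.213 and 0.750 CPM in vehicle and between 3.42 and 5.37 CPM in nutlin, with an LFC of 3.19 ± 0.17 (adjusted p = 1.85e-16). COL9A2, the most abundant of these in nutlin per length, with a median of 16.8 TPM, rose from a median of 9.04 CPM (7.85 to 10.3) to 28.3 CPM (25.0 to 30.4), with an LFC of 1.65 ± 0.05 (adjusted p = 1.78e-21). Its partner chains in collagen IX stayed low, COL9A1 with at most 0.411 CPM and COL9A3 with at most 1.07 CPM in any sample. COL12A1, COL14A1 and COL20A1 rose from medians below 0.2 CPM to medians of 2.42, 0.439 and 1.005 CPM.

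All 4 transmembrane collagens, which sit in the plasma membrane and can be shed, rose, beside 67.4% of all tested collagens. COL13A1, found at cell adhesions and nerve-muscle junctions, lay between 0 and 0.350 CPM in vehicle (median 0.242 CPM) and between 5.42 and 7.60 CPM in nutlin (median 6.59 CPM), with an LFC of 4.92 ± 0.20 (adjusted p = 2.99e-19). COL17A1, of skin hemidesmosomes, had 2 counts over the vehicle samples and 32 over the nutlin samples, a ratio of 15.6 with a 95% counting interval of 3.98 to 134. COL23A1 and COL25A1 rose with LFCs of 1.02 and 0.42, and without vehicle samples 4 to 7 neither was called (adjusted p = 0.101 and 0.189). Outside these groups COL7A1, the anchoring fibril collagen, rose with an LFC of 0.84 ± 0.08 (adjusted p = 3.38e-10), and COL18A1, the source of endostatin, was the only collagen beside COL4A1 and COL4A2 that fell (LFC -0.46 ± 0.10, adjusted p = 0.000152). Of the COL18A1 exon bases 18.5% are shared with a gene on the opposite strand, and whether strand was used in the counting is not given in the sources used here.

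**Figure D3:**
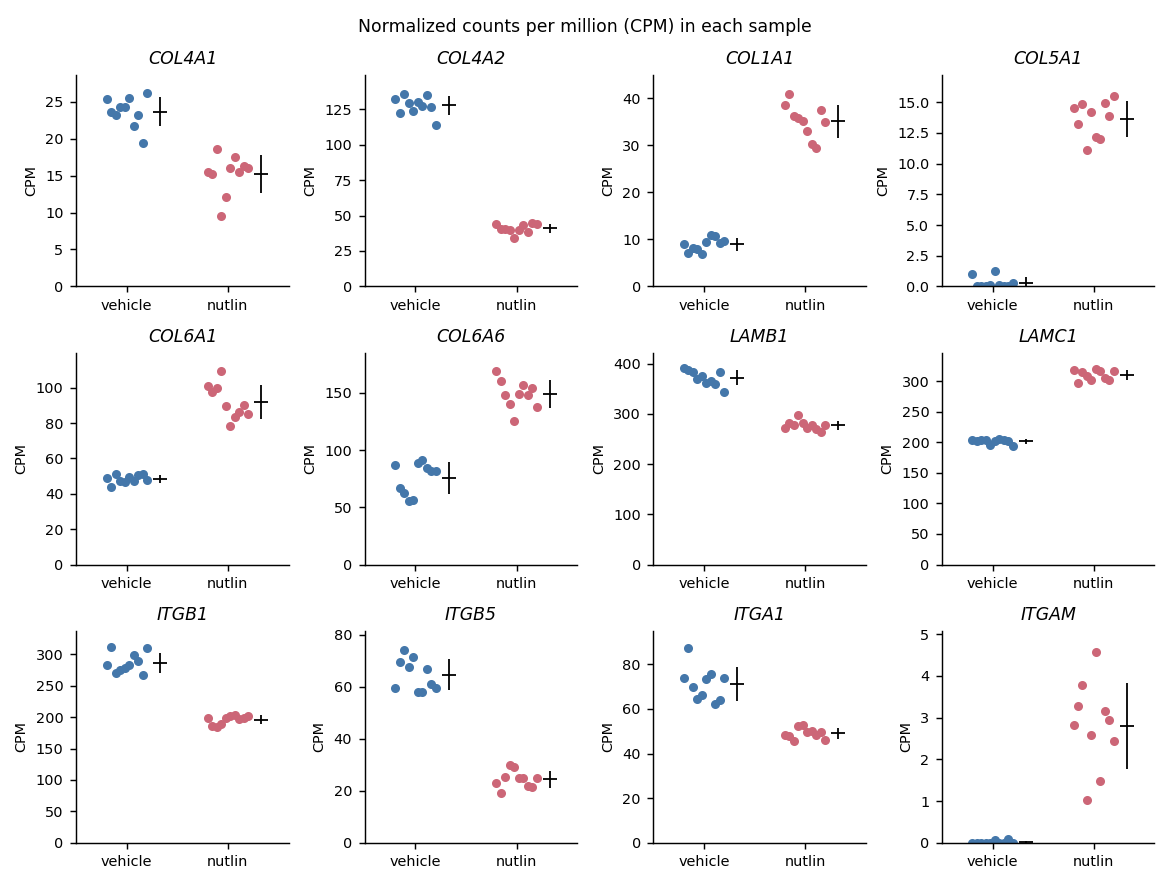
CPM (y axis, from 0) of 12 members in each of the 10 vehicle and 10 nutlin samples, with the mean ± SD beside the points. In every panel the nutlin points lie entirely on 1 side of the vehicle points. COL4A1, COL4A2, LAMB1, ITGB1, ITGB5 and ITGA1 are lower in nutlin, and COL1A1, COL5A1, COL6A1, COL6A6, LAMC1 and ITGAM higher.

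In the laminins, the abundant beta and gamma chains moved in opposite directions. LAMB1, the beta-1 chain and the most abundant member per length with a median of 126 TPM in vehicle, lay between 344 and 392 CPM in vehicle (median 373 CPM) and between 265 and 299 CPM in nutlin (median 278 CPM). It fell by 0.42 on the log2 scale, with an SE of 0.03 (adjusted p = 2.31e-13). LAMC1, the gamma-1 chain found in most laminins, lay between 194 and 206 CPM in vehicle (median 203 CPM) and between 296 and 321 CPM in nutlin (median 311 CPM), with an LFC of 0.62 ± 0.03 (adjusted p = 1.04e-18). LAMB2, the beta-2 chain of synaptic and kidney laminins, was next with a median of 15.3 CPM (13.9 to 17.1) and 18.01 CPM (15.4 to 21.3). It was called with an LFC of 0.22 ± 0.06 (adjusted p = 0.0016), but with an offset for effective length the LFC was 0.03 and no longer called (adjusted p = 0.78), and its median TPM was 12.1 in vehicle and 11.9 in nutlin.

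Among the less abundant chains, LAMC3, the gamma-3 chain, rose from a median of 0.404 CPM (0.213 to 0.807) to 2.82 CPM (1.71 to 4.69), with an LFC of 2.58 ± 0.20 (adjusted p = 2.6e-12). LAMB4, a further beta chain, rose with an LFC of 2.28, and LAMB3, the beta-3 chain, stayed at or below 0.284 CPM and was not called.

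Laminin alpha chains, which carry the main integrin-binding site, were far scarcer per length than beta and gamma chains in both conditions. Summed over the 5 alpha genes the level lay between 3.98 and 8.27 TPM in vehicle and between 5.86 and 9.55 TPM in nutlin. The beta genes summed to 123 to 165 TPM and 93.4 to 115 TPM, and the gamma genes to 28.8 to 39.9 TPM and 47.7 to 58.5 TPM. LAMA5, the widespread alpha-5 chain, was the only alpha chain that rose, from a median of 3.31 CPM (2.62 to 4.71) to 9.66 CPM (8.33 to 13.01), with an LFC of 1.5 ± 0.10 (adjusted p = 7.36e-14). LAMA3 fell (LFC -0.82 ± 0.17, adjusted p = 9.22e-05), a call that was lost with the offset for effective length (LFC -0.08, adjusted p = 0.812). LAMA1, LAMA2 and LAMA4 were not called.

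**Figure D4:**
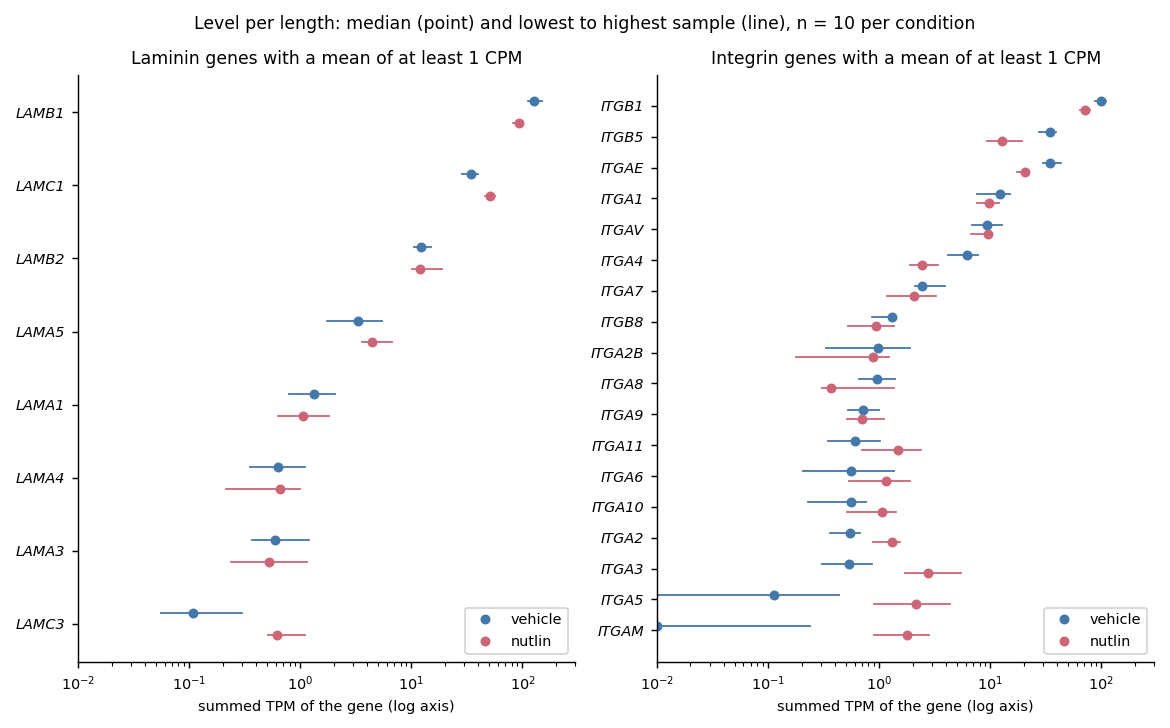
Summed TPM (x axis, log scale from 0.01) of laminin and integrin genes that reached a mean of 1 CPM, ordered by the vehicle median. Points are medians and lines run from the lowest to the highest of 10 samples per condition; values below 0.01 TPM are drawn at the left edge. LAMB1 and ITGB1 lead their families in both conditions, at vehicle medians of 126 and 98.7 TPM, and the alpha chains of laminin lie below 10 TPM.

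Of the integrin beta subunits, ITGB1 and ITGB5 made up most of the level and both fell. ITGB1, the partner of most matrix-binding alpha subunits, lay between 267 and 312 CPM in vehicle (median 283 CPM) and between 185 and 203 CPM in nutlin (median 199 CPM), with an LFC of -0.55 ± 0.03 (adjusted p = 6.21e-15). ITGB5, which pairs with ITGAV to bind vitronectin, lay between 58.1 and 74.1 CPM in vehicle (median 64.0 CPM) and between 19.1 and 29.9 CPM in nutlin (median 24.8 CPM), with an LFC of -1.40 ± 0.07 (adjusted p = 1.14e-17). ITGB8, a further partner of ITGAV, fell by 0.35 on the log2 scale with overlapping groups (adjusted p = 0.0036). ITGB4, the laminin receptor subunit of hemidesmosomes, and ITGB7, of lymphocytes, rose from medians of 0.512 and 0.0953 CPM to 1.24 and 0.322 CPM, and the call of ITGB4 was lost with the offset for effective length (adjusted p = 0.146). ITGB7 shares 42.3% of its exon bases with a gene on the opposite strand. ITGB2 and ITGB3, the beta subunits of leukocytes and platelets, stayed below 0.47 CPM in every sample.

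The alpha subunits that bind collagen split. ITGA1, the most abundant of these per length with a median of 12.1 TPM in vehicle, fell from a median of 71.7 CPM (62.4 to 87.5) to 49.0 CPM (45.8 to 52.6), with an LFC of -0.54 ± 0.05 (adjusted p = 7.44e-11). With the offset for effective length its LFC was -0.18 and was not called (adjusted p = 0.111). ITGA2, ITGA10 and ITGA11, the other collagen receptors, each rose in every nutlin sample above every vehicle sample. Their medians went from 4.13, 1.37 and 4.13 CPM to 9.23, 3.26 and 9.65 CPM, with LFCs of 1.16, 1.27 and 1.16. Summed over the 4 genes the level did not separate the conditions, with 9.33 to 16.3 TPM in vehicle and 10.9 to 16.8 TPM in nutlin.

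Of the laminin-binding alpha subunits, ITGA3 and ITGA6 rose and ITGA7 was not called (adjusted p = 0.749). ITGA3 lay between 0.662 and 1.17 CPM in vehicle (median 0.811 CPM) and between 4.52 and 8.03 CPM in nutlin (median 6.49 CPM), with an LFC of 2.89 ± 0.13 (adjusted p = 8.78e-18). ITGA6 went from a median of 1.56 to 2.92 CPM with overlapping groups (LFC 0.94 ± 0.15, adjusted p = 3.75e-06).

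Of the alpha subunits that bind the RGD peptide motif of fibronectin and vitronectin, 1 rose and 3 fell. ITGA5, the classical fibronectin receptor subunit, lay between 0 and 0.213 CPM in vehicle and between 1.12 and 2.56 CPM in nutlin, with an LFC of 4.21 ± 0.28 (adjusted p = 3.87e-14). ITGA8 fell from a median of 5.16 CPM (4.32 to 6.09) to 2.33 CPM (1.86 to 3.32), with an LFC of -1.08 ± 0.10 (adjusted p = 1.65e-10). ITGAV, by far the most abundant of these, fell from 49.0 CPM (36.5 to 57.5) to 38.8 CPM (29.97 to 44.2), with an LFC of -0.37 ± 0.07 (adjusted p = 5.81e-05). Its groups overlapped, its median TPM was 9.38 in vehicle and 9.52 in nutlin, and with the offset for effective length it was not called (adjusted p = 0.285). ITGA2B, the platelet subunit, fell with an LFC of -0.56 (adjusted p = 0.0258) and was not called with that offset (adjusted p = 0.273).

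ITGA4, which binds fibronectin and the vascular adhesion molecule VCAM1 and is known from migrating neural crest and leukocytes, fell from 13.9 to 21.1 CPM in vehicle (median 18.3 CPM) to 5.82 to 8.98 CPM in nutlin (median 6.86 CPM). Its LFC was -1.34 ± 0.08 (adjusted p = 7.29e-15), and 26.4% of its exon bases are shared with a gene on the opposite strand. ITGA9, its relative, was called with an LFC of -0.37 (adjusted p = 0.000774) but not with the offset for effective length (adjusted p = 0.633).

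The alpha subunits named for leukocytes included the largest rise of all members. ITGAM, the alpha chain of the complement receptor of macrophages, at chr16:31259967-31332892, had 2 counts over the 10 vehicle samples and 441 over the 10 nutlin samples. The ratio was 215, with a 95% counting interval of 59.2 to 1780. Every nutlin sample, from 1.03 to 4.56 CPM, lay above every vehicle sample, of which the highest had 0.0813 CPM (adjusted p = 5.3e-15). ITGB2, its only known beta partner, was not called (adjusted p = 0.146). ITGAL rose with an LFC of 1.01 (adjusted p = 0.0156), a call lost with the offset for effective length (adjusted p = 0.0741), and ITGAD and ITGAX were not called. Of the leukocyte markers examined, the T cell marker CD3E had 0 counts in all samples and PTPRC at most 0.394 CPM, while CD68 rose from a median of 0.697 to 3.88 CPM and LYZ from 2.24 to 5.12 CPM. The summed level of the list was 2.35 to 5.13 TPM in vehicle and 7.61 to 10.8 TPM in nutlin, and without CD68 and LYZ 0.0808 to 0.941 TPM and 0.187 to 0.715 TPM. The part of leukocyte-like expression in the ITGAM result was not tested.

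The type of transcript that carried a member's counts differed between members. Counts per transcript are estimates, and how well similar transcripts of a gene were told apart was not tested. In vehicle, 13 of the 50 members with a mean of at least 1 CPM had under 50% of their counts on transcripts annotated as protein_coding, and in nutlin 9. The share over all protein-coding genes is not given here, so these counts cannot be read as particular to the families. ITGAE, the alpha-E subunit of lymphocytes in epithelia, followed ITGB1 and ITGB5 among integrins per length with a median of 34.2 TPM in vehicle, but only 0.333% of its counts in vehicle and 1.28% in nutlin were on protein_coding transcripts. Its gene count fell from a median of 20.1 CPM (15.7 to 26.1) to 11.8 CPM (10.3 to 14.01), with an LFC of -0.77 ± 0.08 (adjusted p = 6.12e-10). Most of this lay on ITGAE-207, a 672-base transcript of 4 exons without a defined coding sequence at chr17:3714628-3723837, which covers the 3′ end of the gene. On protein_coding transcripts alone ITGAE had medians of 0.0355 and 0.0927 CPM, and its LFC of 1.18 ± 0.74 was not called (adjusted p = 0.161).

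The rise of ITGA5 was also carried mainly by a transcript that is not annotated as coding. In nutlin 10.8% of its counts were on protein_coding transcripts, with a median of 0.133 CPM, against 1.93 CPM on the others, chiefly the retained-intron transcript ITGA5-211 at chr12:54395261-54406116. Its LFC on protein_coding transcripts was 2.02 ± 0.78 (adjusted p = 0.0245). ITGA3 went the other way. Its protein_coding transcripts rose from a median of 0.0593 CPM to 4.32 CPM and from 5.99% to 64.3% of its counts, with an LFC of 6.24 ± 0.28 on these alone (adjusted p = 1.94e-16), while its other transcripts went from a median of 0.811 to 2.44 CPM. For COL7A1 and COL16A1, most counts in both conditions were on retained-intron transcripts.

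When only protein_coding transcripts were summed, an alternative added after the data were seen, 43 members rose and 13 fell. Of the 16592 genes tested that way 36.5% rose and 32.5% fell. The fit moved LFCs up by a median of 0.15 against that on all transcripts. Calls lost were those of COL8A1, ITGA2B, ITGAE and ITGB8, calls gained those of COL9A1, ITGAD and LAMA1, and 3 called rises, those of ITGAM, COL15A1 and COL2A1, could not be tested. ITGAM and COL2A1 had no vehicle counts on such transcripts, and COL15A1 had none in either condition.

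**Figure D5:**
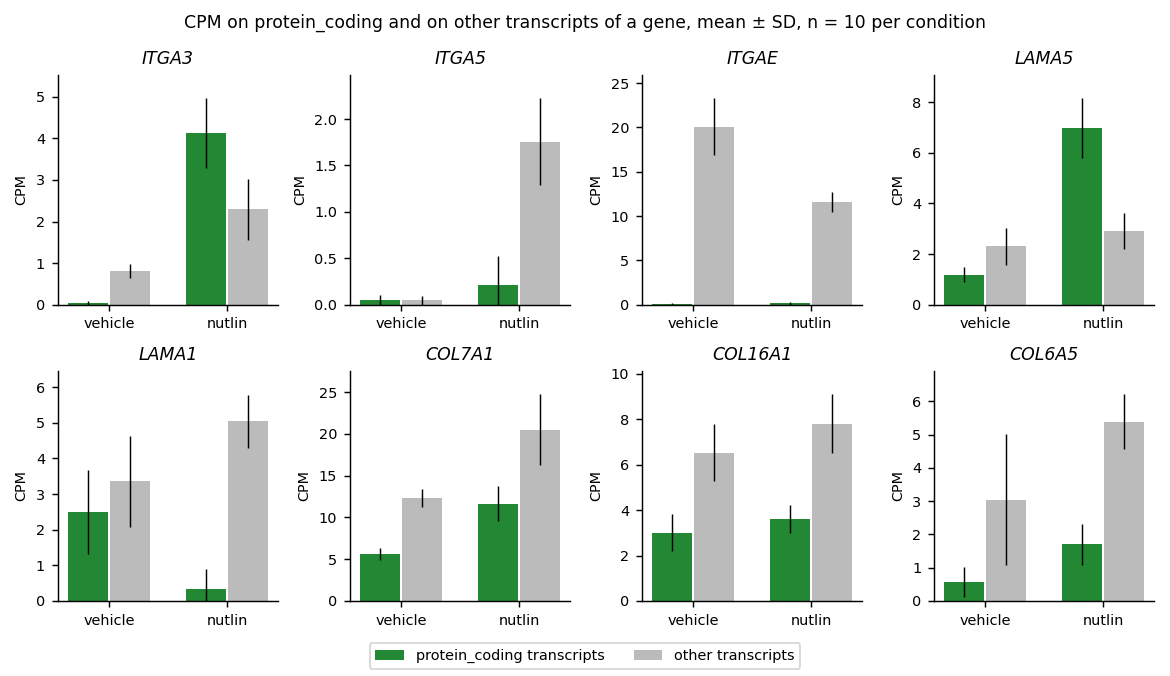
Mean CPM ± SD (y axis, from 0) over 10 samples per condition on transcripts annotated as protein_coding and on all other transcripts of 8 members. In ITGA3 and LAMA5 the rise is mainly on protein_coding transcripts, and in ITGA5 mainly on others. ITGAE has almost no counts on protein_coding transcripts in either condition, and in LAMA1 they drop to a mean of 0.335 CPM.

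The share of a gene's counts that fell on its dominant transcript was compared for the 30 members that reached a mean of 5 CPM and had 2 or more transcripts with counts. The dominant transcript was protein_coding in 24 of these. By a two-sided permutation test of 100000 resamples with Benjamini-Hochberg adjustment over 10040 protein-coding genes chosen in the same way, the share rose in 3 members and fell in 5. Over all of those genes it rose in 7.8% and fell in 29.7%, so the members' counts say nothing particular of these families. For LAMA5 the full-length transcript LAMA5-201, of 80 exons, rose from 34.8% ± 10.9 (SD, n = 10) to 70.4% ± 7.06 (adjusted p = 0.000596). For LAMA1 the dominant transcript was LAMA1-207, of 62 exons with a retained intron, which rose from 31.4% ± 16.9 to 66.9% ± 13.7 (adjusted p = 0.000705). LAMA1 as a gene was not called, with a median of 5.77 CPM in vehicle and 5.41 CPM in nutlin (edgeR QL, adjusted p = 0.182). Its only protein_coding transcript was assigned a median of 3.04 CPM in vehicle and nearly 0 in nutlin. Such assignments could vary widely within a condition. Over the vehicle samples the share ran from 0 to 53.2% for LAMA1-207 and from 0 to 85.9% for COL11A2-201. Of the LAMA1 exon bases 11.1% are shared with a gene on the opposite strand.

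The main coding transcripts of ITGA1 and ITGAV lost share. ITGA1-201 fell from 90.2% ± 2.12 to 80.4% ± 2.38, with every nutlin sample below every vehicle sample (adjusted p = 0.000487, from the smallest p that the resamples can give, 1e-05). The retained-intron transcript ITGA1-203 had a median of 2.79 CPM in vehicle and 5.54 CPM in nutlin. ITGAV-201 fell from 74.1% ± 8.38 to 58.9% ± 7.57 (adjusted p = 0.0012), and ITGAV-204, a shorter coding transcript, had medians of 11.8 and 12.8 CPM. The share of ITGAE-207 fell from 58.2% ± 4.42 to 47.8% ± 8.12 (adjusted p = 0.00957). COL6A6, COL7A1 and ITGB1, named here after their values were seen, changed by -5.50 to 6.93 percentage points. For COL4A1-201 and COL4A2-201 the share did not pass the test (adjusted p = 0.276 and 0.248), with means of 99.5% and 99.7% in vehicle and 98.97% and 99.4% in nutlin.

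Promoter windows were found for 59 of the 83 members. A canonical p53 half-site was in the window of 1 of them, COL17A1, and in 6.63% of all windows, and a full site of 2 half-sites was in none and in 0.0285% of all windows. A window without these letters says nothing of p53 binding elsewhere.

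Genes that process, surround or read these proteins were taken from a list of 98 genes, of which 96 were tested, 31 rose and 41 fell. Of the 32 enzymes and chaperones of collagen making, 5 rose and 16 fell, beside the rise of 29 collagens. Among these falls, SERPINH1, the collagen chaperone HSP47, went from a median of 48.7 to 28.2 CPM, PLOD2, a lysyl hydroxylase, from 15.6 to 5.87 CPM, and LOX, which cross-links collagen, from 5.90 to 1.80 CPM. P4HA2, a prolyl hydroxylase subunit, rose from a median of 4.71 to 10.9 CPM. Integrin adaptors and kinases had 4 rises (18.2%) and 13 falls (59.1%) of 22 tested, among the falls talin TLN1 with an LFC of -0.53. ITGB3BP, also known as a centromere protein, fell from a median of 42.0 CPM (35.0 to 49.6) to 12.6 CPM (10.3 to 14.9), with an LFC of -1.75 ± 0.06 (adjusted p = 2.84e-20).

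Other matrix proteins and their proteases moved in both directions. AGRN, agrin, a heparan sulfate proteoglycan of basement membranes that binds laminin, rose from a median of 3.21 CPM (2.34 to 4.47) to 67.2 CPM (57.3 to 76.5), with an LFC of 4.32 ± 0.08 (adjusted p = 6.73e-27). DDR1, a receptor kinase that collagen activates, rose from 10.04 CPM (7.81 to 12.3) to 102 CPM (93.8 to 113), with an LFC of 3.37 ± 0.07 (adjusted p = 3.89e-26), while the related DDR2 was not called (adjusted p = 0.339). SDC2, syndecan-2, a heparan sulfate co-receptor of integrins, fell from 119 CPM (108 to 137) to 14.7 CPM (12.4 to 15.98), with an LFC of -3.07 ± 0.05 (adjusted p = 1.33e-27). Of the proteases and inhibitors 9 of 14 tested (64.3%) rose and 3 (21.4%) fell, beside 32.4% and 38.5% of the tested protein-coding genes. MMP11, a metalloproteinase, rose from 1.15 CPM (0.634 to 1.72) to 4.74 CPM (2.98 to 5.70), with an LFC of 1.99 ± 0.15 (adjusted p = 9.32e-13). TIMP2, an inhibitor of such enzymes, fell from 152 CPM (141 to 166) to 41.7 CPM (33.6 to 47.4), with an LFC of -1.89 ± 0.05 (adjusted p = 1.98e-23).

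Of the fibroblast markers, PDGFRA fell from a median of 38.5 to 6.83 CPM and TWIST1 from 161 to 82.5 CPM, and DCN was not called. Endothelial markers reached at most 1.80 CPM, by PECAM1,, with a summed level of 0.285 to 1.26 TPM in vehicle and 0.366 to 1.23 TPM in nutlin. Markers of a mesenchymal neuroblastoma state split, with 4 rises and 2 falls of 7. FOSL1 rose from a median of 0.445 to 16.6 CPM, and VIM, vimentin, fell from 1036 to 712 CPM. The Schwann and glial list had 1 rise, that of ERBB3 from a median of 0.507 to 2.24 CPM, and 1 fall of 5 tested, and the epithelial list 3 rises of 5. SOX10, which defines the glial lineage, had 1 count over all vehicle samples and 0 over all nutlin samples. The part of any of these cell states in the collagen, laminin and integrin values was not tested.

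The remaining members were scarce or changed little. ITGB6 had 0 counts in vehicle and 8 in nutlin, at least 2.6-fold higher against a floor of 3 counts over the vehicle group. ITGBL1 had 0 and 3 counts, which allows no fold. COL8A2, COL10A1, COL21A1, COL22A1, COL24A1 and COL28A1 were tested and not called, each with a median below 0.7 CPM in both conditions. Some of these depended on the settings. With the offset for effective length COL10A1 fell (LFC -0.75, adjusted p = 0.0258) and COL28A1 rose (LFC 0.97, adjusted p = 0.0204), and with DESeq2 size factors COL21A1 rose (LFC 1.77, adjusted p = 0.0498). COL26A1 rose with an LFC of 0.50 (adjusted p = 2.98e-05). COL15A1 rose with 0.70 (adjusted p = 0.0057), with all of its counts on the retained-intron transcript COL15A1-204. COL8A1 rose with 0.44 (adjusted p = 0.0354), a call lost with the offset for effective length (LFC 0.41, adjusted p = 0.0707).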

How the data were processed

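The authors quantified read pairs with kallisto 0.42.4 on hg38 transcripts (per the labels) and deposited for each of 198968 transcripts an estimated count without normalization, an effective length in bases and a TPM value. Here 191106 transcripts (96.05%) were matched to GENCODE release 44, by identifier, while the study built its index on an earlier Ensembl release of GRCh38. The deposited estimated counts were summed per gene and rounded. The deposited TPM values were summed for levels between genes, and the deposited effective lengths entered 1 alternative. Every protein_coding or lncRNA gene having 1 count or more in both conditions entered edgeR 4.0.16 in R 4.3.3, as under the results, with condition as the only term. The SE is the LFC divided by the square root of F. Groups came from the sample titles, and the study calls the samples biological replicates. The p-values measure the spread between these cultures. No 2 libraries were identical, and the first principal component, with 79.1% of the variance, separated the conditions.

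Members and lists were chosen with earlier results of these data known. Genes with full values are, per family, up to 4 of the largest rises and 4 of the largest falls among SDE members that reach a mean of 1 CPM with groups that do not overlap, the 3 with the highest vehicle TPM, COL4A1 to COL4A6, 3 rises and 3 falls of the associated list, CDKN1A, MDM2 and 5 changed transcript shares. Other genes were named after their values were seen, to account for the members. Alternatives were DESeq2 1.42.0 size factors and test, limma 3.58.1 voom, filterByExpr with a minimum count of 10, no filter per condition, an effective length offset, 1% FDR, a replicate block, shares of TPM or at 20 CPM, and correlations on CPM. The edgeR code was tested on simulated data. Tables and permutation tests were made with scipy 1.17.1 and pandas 2.3.3 in Python 3.11.15, and plots with matplotlib 3.10.9. A laminin gene and a marker gene that entered the counts and sums are not reported here.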

Additional observations from a re-analysis of the deposited data

Results flagged for a closer look

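In groups of 10, a sample was marked when its gap to the nearest other sample was too large a part of the group's range by Dixon's 95% critical value. Of 86 groups examined 5 were marked, and chance marks about 1 in 20. LAMB1 had 299 CPM in nutlin sample 4, above the next at 282 CPM. LAMA5 had 13.01 CPM in nutlin sample 2, above the next at 10.6 CPM. COL4A5 had 0.0584 CPM in vehicle sample 9, from its 1 vehicle count. MMP11 had 2.98 CPM in nutlin sample 7, below the next at 4.33 CPM. The share of ITGAV-201 was 94.5% in vehicle sample 7, above the next at 79.5%.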

How the results depend on the processing

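Over the alternatives, 34 to 47 members rose and 11 to 15 fell, with 39 and 14 at 1% FDR. The fewest rises came with filterByExpr, which left low-count members untested, among them called rises such as COL12A1, COL20A1 and COL4A3. With an offset for effective length 6 integrins in place of 10 fell, and 1 laminin in place of 2. With shares compared at a mean of at least 20 CPM, 5 members changed in place of 8. On protein_coding transcripts the LFC of ITGAE turned to 1.18. The cause of these was not tested, apart from the smaller numbers of members tested with filterByExpr and compared at 20 CPM. The replicate numbers do not pair the samples: for the 8 shared numbers the mean correlation of deviations was 0.00893, none over 0.1. In the 16 samples that share a number, 43 members rose and 15 fell with the replicate block and 46 and 15 without it, and COL4A4 and COL4A5 were not called with it. Without vehicle samples 4 to 7, 41 rose and 14 fell. Depth limits the 33 members below 1 CPM.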

Other observations

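Among the vehicle samples, 4 to 7 had 18.8, 23.1, 21.1 and 22.9 CPM of CDKN1A, while the other 6 had 34.7 to 54.9 CPM. The same samples had 67.2, 62.1, 55.6 and 56.0 CPM of COL6A6, against 81.3 to 91.2 CPM in the others. The labels give no batch or day for these samples.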
